A study of Mus musculus with 3 samples.

Results

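The methylation of 8 loci that mark epithelial or mesenchymal cells was examined in ID8, a mouse ovarian cancer line of strain C57BL/6, from 3 libraries. The labels describe its cells as female ovarian surface epithelial cells, cultured in RPMI medium with fetal bovine serum and gentamicin and sampled at baseline, without treatment. The libraries form 1 group, the series calls them independent, and there is no control group or second line. The loci were taken as windows of fixed position on the genome build mm9. The epithelial windows hold Cdh1, Epcam, the Mir200b cluster and the Mir200c cluster, and the mesenchymal windows hold Vim, Zeb1, Twist1 and Cdh2.

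Methylation was read at CCCGGG sites with DREAM, short for digital restriction enzyme analysis of methylation. SmaI cuts such a site only when its CpG is unmethylated, and XmaI then cuts the methylated ones, so the end of a sequenced fragment tells the state of the site. Together the windows hold 50 of the 173449 CCCGGG sites listed in the deposited tables, 22 in the epithelial windows and 28 in the mesenchymal ones. The methylation level of a site is the methylated share of its reads. A site counts as covered when each library has at least 10 reads there, which 11 of the 50 sites reached (22.0%), against 24112 of all listed sites (13.9%). Of these 11 sites, 3 lay in the Mir200c window, 2 in the Zeb1 window, 2 in the Twist1 window and 4 in the Cdh2 window. The windows of Cdh1, Epcam, Mir200b and Vim had no covered site, so the rule gives no level for them. Levels of a window are therefore levels of a few sites and not of a gene.

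Epithelial cells are held together by E-cadherin, which Cdh1 encodes, and carry the adhesion protein EpCAM. In the epithelial-mesenchymal transition, transcription factors such as ZEB1 and TWIST1 repress such genes, while vimentin, an intermediate filament protein, and N-cadherin, which Cdh2 encodes, are typical of mesenchymal cells. The microRNAs of the miR-200 family repress ZEB1, and ZEB1 represses the genes of these microRNAs, so the pair forms a mutual switch. Normal ovarian surface epithelium is known for a mixed state, with N-cadherin and vimentin and little E-cadherin. Methylation of CpG-dense promoters usually goes with silent genes, whereas methylation inside genes is common in active ones. The data hold no transcript level, so they do not check the labelled cell type against its expressed markers.

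The miR-200 family comes from both microRNA windows, and its mature sequences are shown because the Mir200c window held all the covered sites of the epithelial side. They are RefSeq's, on build GRCm38.p6, all on the minus strand, and the capitals mark the seed, bases 2 to 8, which pairs with target transcripts. Mir200b, Mir200a and Mir429 lie together on chromosome 4, and Mir200c and Mir141 on chromosome 6.
miR-200b-3p (chr4:156055685-156055706): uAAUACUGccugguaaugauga
miR-429-3p (chr4:156053916-156053937): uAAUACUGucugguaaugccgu
miR-200c-3p (chr6:124718324-124718346): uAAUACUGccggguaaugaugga
miR-200a-3p (chr4:156054911-156054932): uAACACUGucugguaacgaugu
miR-141-3p (chr6:124717917-124717938): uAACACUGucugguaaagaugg
The seed AAUACUG is shared by 3 of them and AACACUG by the other two, so each cluster makes both seeds. None of the 5 hairpins contains CCCGGG, so the assay has no site inside the hairpins and the values below come from the DNA around them. The annotation of the same build places Mir141 and Ptpn6 as the nearest genes on either side of Mir200c, with Phb2 beyond Mir141, so the window can also hold parts of those genes.

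Promoter sequences are shown for the 3 members with an entry in the RefSeq table, Epcam, Vim and Twist1, because they bear on what the assay could read. Each runs from 250 bases before to 50 bases after the start of the gene, on build GRCm38.p6 and on the plus strand, and the capitals mark CpG dinucleotides. They hold 11, 11 and 27 CpGs.
Epcam (chr17:87635729-87636028): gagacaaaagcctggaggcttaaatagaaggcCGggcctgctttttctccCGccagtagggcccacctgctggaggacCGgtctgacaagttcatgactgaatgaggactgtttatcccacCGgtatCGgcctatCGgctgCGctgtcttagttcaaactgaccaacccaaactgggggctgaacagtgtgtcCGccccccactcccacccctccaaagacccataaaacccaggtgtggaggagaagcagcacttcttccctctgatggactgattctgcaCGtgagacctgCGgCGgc
Vim (chr2:13574061-13574360): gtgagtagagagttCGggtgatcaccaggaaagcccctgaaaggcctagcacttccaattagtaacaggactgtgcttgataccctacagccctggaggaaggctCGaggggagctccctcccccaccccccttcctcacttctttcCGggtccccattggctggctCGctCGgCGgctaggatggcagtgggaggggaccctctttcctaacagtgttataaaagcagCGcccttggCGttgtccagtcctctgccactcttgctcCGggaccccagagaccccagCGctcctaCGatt
Twist1 (chr12:33957421-33957720): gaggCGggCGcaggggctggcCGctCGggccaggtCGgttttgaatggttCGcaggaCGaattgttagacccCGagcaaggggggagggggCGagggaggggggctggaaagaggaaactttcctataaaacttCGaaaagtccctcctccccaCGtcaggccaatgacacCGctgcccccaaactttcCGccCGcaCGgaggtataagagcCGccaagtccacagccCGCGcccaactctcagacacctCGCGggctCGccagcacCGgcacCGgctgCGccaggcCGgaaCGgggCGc
None of the 3 promoters contains CCCGGG, a motif that reads the same on both strands. It occurs in 4436 of the 32851 promoters of that table (13.5%). The methylation of these promoter CpGs was therefore not read by the assay in this stretch. The sites below are placed on mm9 and the sequences on GRCm38.p6, so neither set of positions locates the other, and whether a site is exonic, intronic or upstream of its gene was not analysed here.

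The libraries held 7689526, 9190335 and 10361138 reads in replicates 1, 2 and 3, of which 1756, 1914 and 2274 fell in the 8 windows. The 11 covered sites had between 45 and 364 reads per library, with medians of 136, 136 and 144, below the medians of 158, 186 and 211 over all covered sites. Intervals are exact 95% intervals (Clopper-Pearson) and, like the limits given for counts of 0, cover counting error only, since copies of 1 molecule may have been read more than once. Separate cultures are not stated, so the SD between libraries may be technical.

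Covered sites were mostly methylated in the Mir200c window and almost free of methylation in the Zeb1 and Cdh2 windows, while the Twist1 window held a fully methylated and a sparsely methylated site. In the text, a level under 10% is called low, one of 10% to under 70% partial and one of 70% or more high. The mean over the 3 epithelial sites was 79.8% ± 2.79 (SD, n = 3 libraries) and that over the 8 mesenchymal sites 14.6% ± 0.126. The epithelial mean exceeded the mesenchymal mean by 62.6, 68.2 and 64.9 percentage points in replicates 1, 2 and 3, a mean of 65.2 ± 2.83, so all 3 libraries showed this direction. A two-sided exact sign-flip permutation test gave p = 0.25, and 3 libraries cannot give a smaller one. The epithelial value rests on the Mir200c window alone, and the sites are not replicates of a gene class. With the Twist1 window left out, the 6 sites of Zeb1 and Cdh2 averaged 0.648% ± 0.155, and the difference was 79.2 ± 2.65 points. Twist1 had the highest mean of the mesenchymal windows with a level, so leaving it out could only widen the difference.

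**Figure D1:**
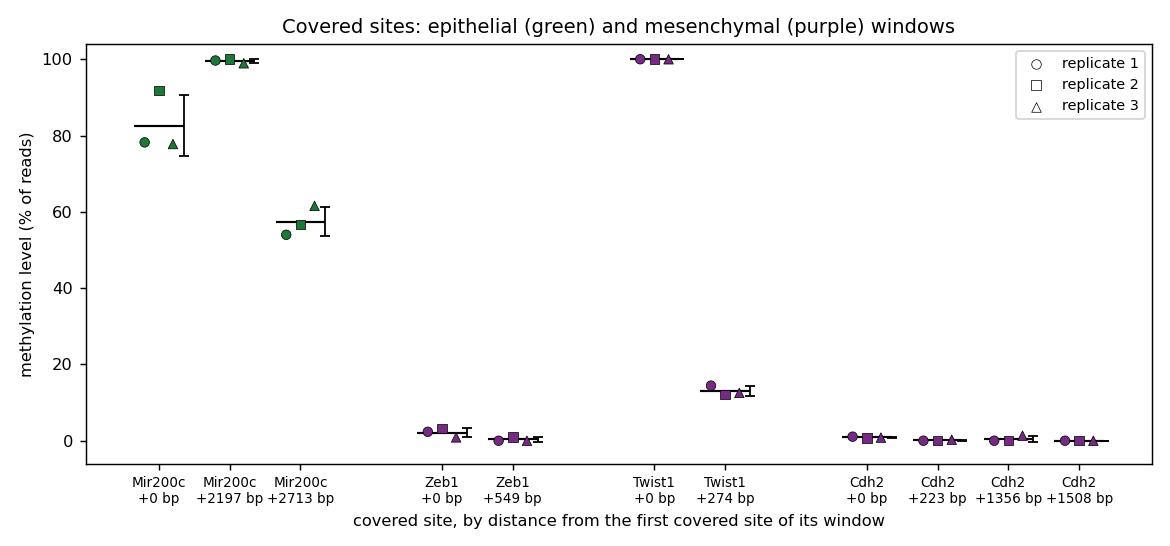
Methylation level (vertical axis, percent of reads) of each of the 11 covered sites, placed by distance in bp from the first covered site of its window. Symbols are the 3 libraries, the horizontal line is their mean and the error bar the SD. The Mir200c sites lie between 54.0% and 100%, every Zeb1 and Cdh2 site lies at or below 3.16%, and the Twist1 sites lie at 100% and near 13.0%.

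The Mir200c cluster encodes miR-200c and miR-141. Its window, chromosome 6 from 124660000 to 124675000 on mm9, held 6 listed sites. At position 124667414, 297 of 298 reads were methylated in replicate 1, 257 of 257 in replicate 2 and 281 of 284 in replicate 3, a level of 99.5% ± 0.540 (SD, n = 3). Every library was nearly fully methylated at this site, whose level is above that of 86.3% of all covered sites. At 124667930, the next listed site and 516 bp away, the counts were 156 of 289, 145 of 256 and 181 of 294, or 54.0% (interval 48.0% to 59.8%), 56.6% (50.3% to 62.8%) and 61.6% (55.7% to 67.2%). All 3 intervals overlap, and the mean was 57.4% ± 3.85, the partial site of the window.

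From the first of these sites to the next the level changed by -45.7, -43.4 and -37.4 points in replicates 1, 2 and 3, a mean step of -42.1 ± 4.28 (SD, n = 3). Each library showed a step larger than the spread between libraries. Among the 2202 pairs of adjacent covered sites 500 to 1000 bp apart in the whole table, the median step was 10.3 points in size and 27.2% of pairs had a step of at least 40 points. The third covered site, 124665217, was methylated in 61 of 78, 56 of 61 and 35 of 45 reads, or 78.2%, 91.8% and 77.8%. Its mean was 82.6% ± 7.98, the largest spread between libraries among the 11 sites, with replicate 2 above the other two. It was also the most thinly read of the 3 covered sites of this window. The mean over the window was 77.3%, 82.8% and 79.4% in the 3 libraries.

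Zeb1 encodes the zinc-finger repressor of Cdh1 and of the miR-200 genes. Its window, chromosome 18 from 5585000 to 5780000, held 7 listed sites, of which the covered ones were neighbours 549 bp apart. At 5592712, 3 of 128, 3 of 95 and 1 of 114 reads were methylated, a level of 2.13% ± 1.16 (SD, n = 3). At 5593261, 0 of 136, 1 of 98 and 0 of 115 reads were methylated, a level of 0.340% ± 0.589. Both sites were low in every library, and the step between them, -1.79 ± 0.794 points, was small beside the steps of Mir200c. By the authors' adjusted percent the window mean was 2.25% in place of 1.23%, and without replicate 2 it was 0.805%.

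The remaining sites of the Zeb1 window looked different but were barely read. Further along the window, all 4 reads at 5770054 and all 6 at 5772697 were methylated. Over the 3 read but not covered sites together, 11 of 11 reads were methylated, with an interval from 71.5% to 100%. The low level thus describes the covered pair and not the whole window of 195 kb.

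Cdh2 encodes N-cadherin, the cadherin of mesenchymal and neural cells. Its window, chromosome 18 from 16740000 to 16975000, held 16 listed sites and the most covered ones, all near its upper end. At 16965321, 2 of 188, 2 of 256 and 3 of 361 reads were methylated, a level of 0.892% ± 0.151 (SD, n = 3). At 16965544 only 1 of 364 reads of replicate 3 was methylated and none of 192 and 272 in the other libraries, a level of 0.0916% ± 0.159. The next site, 16966677, had 1 methylated read among 76 in replicate 3 and none among 47 and 68 in replicates 1 and 2. The last, 16966829, had no methylated read among 202 in all, which allows a level of up to 1.49% if the limit is set at 3 reads and up to 1.81% by the exact interval.

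The means over libraries of the Cdh2 sites lay between 0% and 0.892%, and the highest value in any library was 1.32%, the 1 read of replicate 3 at 16966677. Beyond the covered sites, 16967766 and 16967810 had 0 methylated reads of 7 and of 5. Below them the thinly read sites were mostly methylated, with 8 of 8 reads at 16799857, 5 of 5 at 16932898 and 4 of 4 at 16786391, but 1 of 6 at 16908992. As in the Zeb1 window, the low level belongs to a group of close sites. By the authors' adjusted percent the covered sites averaged 0.639%, against 0.356% from the counts, and without replicate 3 the counts gave 0.231%.

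Twist1 encodes a basic helix-loop-helix factor that drives mesenchymal programs in development. Its window, chromosome 12 from 34635000 to 34650000, held 4 listed sites. At 34640779 all reads were methylated, 95, 136 and 144 in the 3 libraries, a level of 100% ± 0, above 90.6% of all covered sites. At 34641053, 274 bp further on, 27 of 187, 32 of 265 and 39 of 311 reads were methylated, or 14.4%, 12.1% and 12.5%, a mean of 13.0% ± 1.25 (SD, n = 3). The step of -87.0 ± 1.25 points was seen in every library. A step of at least 80 points occurred in 13.0% of the 4246 adjacent covered pairs 250 to 500 bp apart.

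Beyond this step the Twist1 window was read thinly, and one of these sites was just under the coverage limit. At 34642738 all 13, 6 and 12 reads were methylated, so that the site missed the minimum in replicate 2 only. At 34642020, 7 of 11 reads summed over the libraries were methylated (63.6%, interval 30.8% to 89.1%). Without replicate 2 the site at 34642738 is covered, and the window mean goes from 56.5% ± 0.626 to 71.2%. A window mean in Twist1 joins unlike sites and depends on which of them are counted.

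By their means the windows ranked Cdh2 (0.356% ± 0.219, SD, n = 3 libraries), Zeb1 (1.23% ± 0.827), Twist1 (56.5% ± 0.626) and Mir200c (79.8% ± 2.79). Cdh2 and Zeb1 did not differ beyond their spread, since the Cdh2 value of replicate 3, 0.605%, exceeded the Zeb1 value, 0.439%, of the same library. The libraries of Twist1 lay between 56.0% and 57.2% and overlapped with none of its neighbours in this order. In all, 6 of the 11 sites were low, 2 partial and 3 high, with a median of 2.13%, beside 45.3% low, 15.9% partial and 38.8% high and a median of 24.4% over all 24112 covered sites.

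Site spacing differed between the windows, and methylation in this assay goes with spacing. The 6 covered sites of Twist1 and Cdh2 had 1 other listed site within 500 bp, a kind of site that was low in 43.3% and high in 39.3% of 10714 cases, and 4 of the 6 were low. The 5 covered sites of Mir200c and Zeb1 had none within 500 bp, and such sites were low in 27.3% and high in 56.9% of 5924 cases. Within this kind the Mir200c sites were 2 high and 1 partial and the Zeb1 sites 2 low.

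The libraries were also set against each other site by site, with Fisher's exact test and Benjamini-Hochberg adjusted p-values over all covered sites. A site was called when its adjusted p was under 0.05 and its levels differed by 20 points or more. None of the 11 sites was called between replicates 1 and 2, where 0.00415% of all covered sites were, nor between 1 and 3 (0.00415%) or 2 and 3 (0.0%). At an unadjusted exact p under 0.05 there was 1 of the 11 sites between replicates 1 and 2 and 0 in the other pairs, against 3.02%, 3.0% and 2.84% of all covered sites. That site was 124665217 of the Mir200c window, with an exact p of 0.0355 and an adjusted exact p of 1. Its difference of -13.6 points between replicates 1 and 2 was also smaller than a call requires. The largest difference at any of the 11 sites was 14.0 points, so the 20-point limit by itself was enough to keep every one from being called. The chi-square test therefore could not call any of them either. Without the limit, Fisher's exact test with adjusted p under 0.05 also called 0 of the 11 sites in each pair.

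Cdh1 encodes E-cadherin. Its window, chromosome 8 from 109120000 to 109200000, held 13 listed sites, the most on the epithelial side, and 102 reads in all libraries together. Of these, 29 of 31 were methylated in replicate 1, 26 of 33 in replicate 2 and 32 of 38 in replicate 3, or 93.5%, 78.8% and 84.2%. Summed, 87 of 102 reads were methylated (85.3%, interval 76.9% to 91.5%), a share that weighs sites by their reads and is no mean level. The reads that the window did hold were thus mostly methylated in each library.

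At 109123512 all 10, 11 and 4 reads were methylated, so this site missed the coverage minimum in replicate 3 only. At 109135061, 5 of 5, 5 of 8 and 12 of 12 reads were methylated, which sums to 88.0% (interval 68.8% to 97.5%). All 14 reads at 109157668 were methylated, and 7 of 13 at 109189375 (53.8%, interval 25.1% to 80.8%). The remaining 9 sites had fewer than 10 reads each over the libraries together. Among them the neighbours 109127676 and 109127684 had 3 reads and 1 read, with 1 methylated read each, and 109148931 had 0 methylated reads of 4.

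Epcam encodes the epithelial cell adhesion molecule. Its window, chromosome 17 from 88030000 to 88055000, held 1 listed site, at 88045555, where the 1 read of each library was methylated. The Vim window, chromosome 2 from 13490000 to 13510000, likewise held 1, at 13495051, where none of 3 reads was methylated. With 3 reads the intervals run from 29.2% to 100% for Epcam and from 0% to 70.8% for Vim, and they overlap. No difference between them was detectable at this depth.

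The Mir200b window, chromosome 4 from 155420000 to 155440000, held 2 listed sites. At 155431427 no read was methylated among 3, 5 and 3, which together allow a level of up to 27.3% if the limit is set at 3 reads and up to 28.5% by the exact interval. At 155439376, 2 of 2, 2 of 3 and 0 of 1 reads were methylated. Summed over libraries, the better read Mir200b site thus had 0 methylated reads of 11, while the covered sites of the Mir200c window had 152 of 184, 835 of 839 and 482 of 839. Of the thinly read Mir200c sites, 124662277 had 0 of 4, 124665813 had 8 of 8 and 124671380 had 4 of 4. The difference was not tested.

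**Figure D2:**
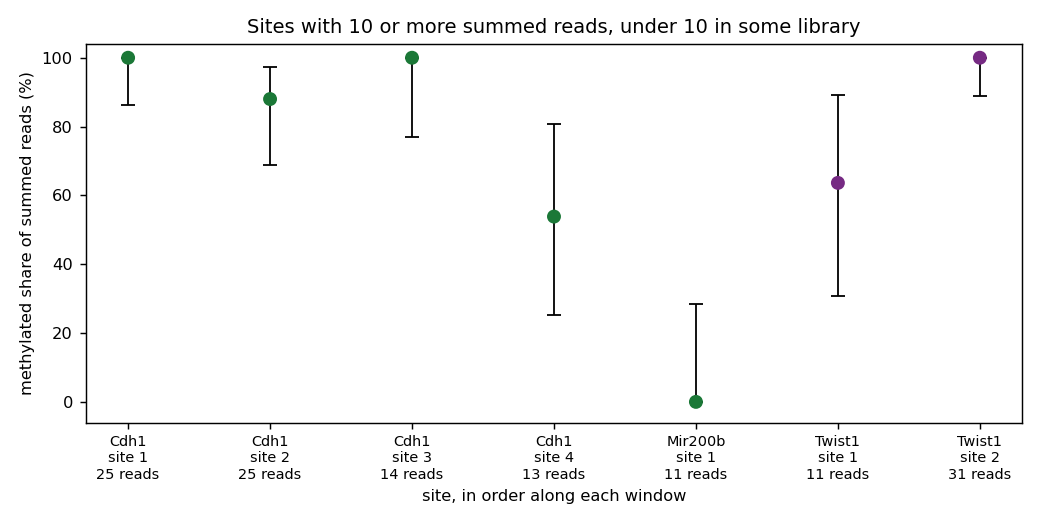
Methylated share of the reads summed over the 3 libraries (vertical axis, percent) at the 7 sites with 10 or more summed reads but under 10 in some library. Error bars are exact 95% intervals, and green marks epithelial and purple mesenchymal windows. The Cdh1 sites lie between 53.8% and 100%, the Mir200b site at 0% and the Twist1 sites at 63.6% and 100%.

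At the sites that were not covered, most reads were methylated on both sides, and the intervals of the sides overlapped. Summed over libraries, 106 of 138 reads were methylated in the epithelial windows (76.8%, interval 68.9% to 83.6%) and 70 of 94 in the mesenchymal ones (74.5%, interval 64.4% to 82.9%). By library the shares were 87.5%, 65.3% and 79.6% on the epithelial side and 72.4%, 64.0% and 82.5% on the mesenchymal side. The order was reversed in replicate 3. These sums join unlike windows, and Cdh1 gave most of the epithelial reads. By window, the methylated reads were 87 of 102 in Cdh1, 12 of 16 in Mir200c, 3 of 3 in Epcam and 4 of 17 in Mir200b. On the mesenchymal side they were 38 of 42 in Twist1, 21 of 38 in Cdh2, 11 of 11 in Zeb1 and 0 of 3 in Vim. The shares are therefore no trait of a side. When sites with at least 10 summed reads were used, an alternative chosen after seeing the data, the difference between the sides was 44.6 points over 18 sites in place of 65.2 over 11.

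Which sites were read went with their spacing. Of all listed sites, 1.36% were covered where the nearest other site was over 1000 bp away, against 73.2% at 250 to 500 bp. In the windows, 0 of 26 sites were covered over 1000 bp, 5 of 12 at 500 to 1000 bp, 2 of 2 at 250 to 500 bp, 4 of 4 at 100 to 250 bp and 0 of 6 up to 100 bp. No epithelial site had its nearest neighbour at 100 to 500 bp, whereas 6 of the 28 mesenchymal sites did, and those 6 were all covered. For those 6 sites, the comparison of the sides therefore sets unlike kinds of sites against each other. The 3 covered epithelial sites and the 2 covered sites of Zeb1 shared the class of 500 to 1000 bp. The part of spacing in the difference was not tested.

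**Figure D3:**
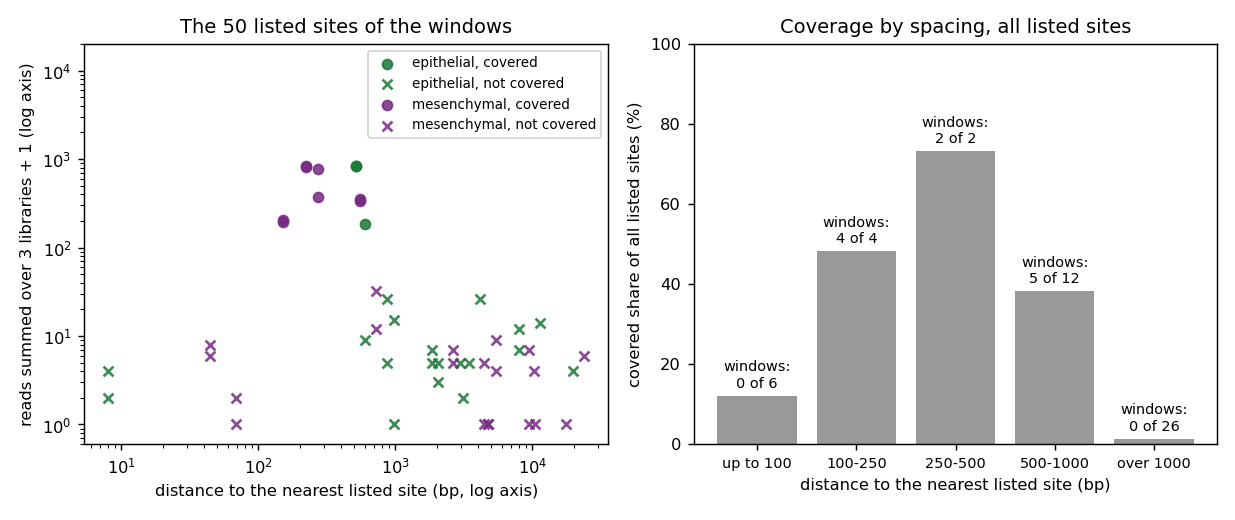
Left, reads summed over the 3 libraries plus 1 against the distance to the nearest listed site in bp, both on log axes, for the 50 sites of the windows (circles covered, crosses not covered). Right, the covered share of all listed sites by distance class, with the covered sites of the windows written above each bar, from 48.3% at 100 to 250 bp and 73.2% at 250 to 500 bp to 1.36% over 1000 bp.

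The authors' adjusted percent, which multiplies the odds of methylated reads by 1 factor per library, raised the partial levels most. The site 124667930 of Mir200c went from 57.4% to 71.3% ± 1.84 (SD, n = 3), which is high and no longer partial, and 34641053 of Twist1 from 13.0% to 21.7% ± 3.20. Sites at 0% or 100% stayed there by construction. The order of the 4 windows was the same, with 0.639%, 2.25%, 60.9% and 86.9% for Cdh2, Zeb1, Twist1 and Mir200c.

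**Figure D4:**
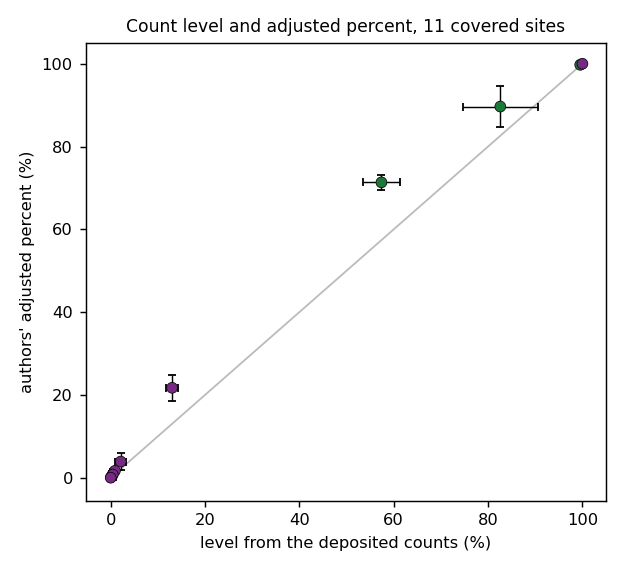
The authors' adjusted percent (vertical axis) against the level from the deposited counts (horizontal axis, percent) for the 11 covered sites, green for epithelial and purple for mesenchymal windows. Points are means and bars SDs over 3 libraries, and the grey line marks equal values. The points farthest above the line are 124667930 of Mir200c, at 57.4% and 71.3%, and 34641053 of Twist1, at 13.0% and 21.7%.

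Other genes of the epithelial-mesenchymal axis could be looked up only by promoter sequence. Of a list of 20 such genes, 12 had an entry in the RefSeq table. Of these 12, 5 (41.7%) held CCCGGG in at least 1 promoter, against 15.0% of the 27025 genes in the table. The 5 were Zeb2, a relative of Zeb1, Twist2, a relative of Twist1, Ocln, which encodes the tight-junction protein occludin, Krt8, which encodes an epithelial keratin, and Acta2, which encodes smooth muscle actin. Zeb2 had 4 promoter entries and Ocln 2, with the motif in 1 each, and more entries give a gene more chances to hold it. The difference between the shares was not tested. Their methylation was not analysed here.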

How the data were processed

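Methylation was measured by DREAM in 3 libraries of untreated ID8 cells. Bowtie2, SAMtools and the builds mm9 and rn4 are named in the submitters' processing notes, and the site identifiers name mm9; no tool version is stated there. The authors deposited, per library, counts of methylated, unmethylated and total reads per CCCGGG site, not normalized. Beside the counts, the authors deposited a raw and an adjusted percent; judged by the values, the latter multiplies the odds by 2.02, 1.81 and 1.73 in replicates 1, 2 and 3. Their origin is not stated there.

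From the counts, a level per site and library was computed and averaged over sites where each library had 10 reads or more. Named sites were all covered sites of windows with up to 6, which held for every window; thinly read sites named beside them were chosen after their values were seen. Fisher's exact test was run per site for each pair of libraries, with Benjamini-Hochberg adjusted p-values over 24112 sites, tested on simulated data (Python 3.11.15, scipy 1.17.1, pandas 2.3.3). Alternatives were coverage minimums of 5, 20 and 50 reads, leaving out each library, the adjusted percent, summed counts, other class limits, equal weights per window, clustered sites alone and the chi-square test. The members, windows and lists were chosen with earlier results of these data known. The table of summed libraries was not used here.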

Additional observations from a re-analysis of the deposited data

How the results depend on the processing

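Of 118 recomputed values, 105 met the criterion set for their kind and 13 did not. Window means had to stay within the SD between libraries, site counts within 1.5 times, and calls between libraries unchanged. The difference between the sides had only to keep its direction. That difference was positive under every alternative that gave a value, from 44.6 to 70.8 points. This range went beyond the SD of 2.83 around the main value of 65.2 points. Leaving out each library gave 54.3 to 70.4 points for the difference. Both ends came with 12 sites, since a Twist1 site passed the coverage minimum without replicate 2 and a Cdh1 site without replicate 3. Without replicate 1, with the same 11 sites, the difference was 66.6 points. The window means ran from 56.2% to 71.2% for Twist1, whose high sites then numbered 1 to 2. For Zeb1 they ran from 0.805% to 1.63% and for Cdh2 from 0.231% to 0.436%. With at least 5 reads Twist1 was at 71.0% with 2 high sites, and with 10 summed reads at 69.1%, since sites were added. With at least 50 reads Mir200c kept 1 high site and Cdh2 2 low sites, since sites were lost. The minimum of 20 reads could not change a level or site count, since every covered site had at least 45 reads per library. Its unchanged values are counted among the 105. The adjusted percent put Mir200c at 86.9% with 0 partial sites, Twist1 at 60.9%, Zeb1 at 2.25% and Cdh2 at 0.639%. With classes at 20% and 80%, Twist1 had 0 partial sites. With at least 5 reads Cdh1 had 1 covered site (87.5%), and without replicate 3 also 1 (100%). Calls between libraries numbered 0 of the members' sites under each alternative run. With the chi-square test and the minimums of 20 and 50 reads they could not change. Those runs added no site to the 11, whose largest difference was 14.0 points, under the limit of 20. These unchanged counts are also among the 105. No site of the windows has 2 listed neighbours within 500 bp, so the clustered sites alone gave no value. No paired analysis was possible because there is 1 group. Few reads limit the Cdh1, Epcam, Mir200b and Vim windows, which held 102, 3, 17 and 3 reads in all. As given above, which sites were read went with their spacing.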
